A study of Mus musculus with 10 samples.

Results

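The ligands of the TNF family that T cells can carry were followed in CD4 T cells with and without TOX. The members were the 8 genes Cd40lg, Fasl, Cd70, Tnfsf4, Tnfsf8, Tnfsf9, Tnfsf11 and Tnfsf14, found by name as 8 of the 53656 gene rows in each count table. The list was chosen with earlier results of these data known. RNA was sequenced from 6 libraries of TOX KO cells and 4 of TOX WT cells, 10 in all, with 36028980 to 55784453 counts per KO library and 31939816 to 45481478 per WT library. The TOX KO cells carried the transgenic SMARTA T cell receptor, which recognises the GP61 peptide of a mouse virus. They were marked as Ly5.1 and were sorted as CD4+, Ly5.1+, Ly5.2-, PD1lo, LAG3lo and CD39lo. The TOX WT cells carried the same receptor, were marked as Ly5.12, and were sorted as CD4+, Ly5.1+, Ly5.2+, PD1hi, LAG3hi and CD39hi. Both kinds of cell were naive when they were given to B6 mice that had been treated with cytoxan (cyclophosphamide) and bore B16-GP61 tumours, a melanoma line made to carry the peptide. Both were taken from the tumour-draining lymph node 11 days later. Genotype and sort gate cannot be told apart in this design, and the labels do not say which part of Tox was removed or which animals stand behind the replicates. The p-values therefore reflect only how these libraries vary, and that variation may be technical.

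Ligands of the TNF family are membrane proteins that act as trimers on receptors of a neighbouring cell, and many can also be cut off and act in soluble form. A T cell uses them to instruct others. CD40 ligand (Cd40lg) gives help to B cells and dendritic cells, and Fas ligand (Fasl) can kill cells that carry Fas. RANK ligand (Tnfsf11) acts on dendritic cells and on the cells that form osteoclasts. LIGHT (Tnfsf14), CD70 (Cd70), OX40 ligand (Tnfsf4), CD30 ligand (Tnfsf8) and CD137 ligand (Tnfsf9) pair with receptors that sustain activated lymphocytes, and Cd70, Tnfsf4 and Tnfsf9 are also well known from antigen-presenting cells.

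Levels are given as CPM, counts scaled to the size of each library. The targeted gene Tox was lower in every KO library (31.0 ± 20.8 CPM, SD, n = 6) than in every WT library (236 ± 88.0 CPM, SD, n = 4; log2 fold change -2.93, edgeR adjusted p = 0.010). T cell identity genes, Cd4 and Cd3e among them, were abundant in all libraries. Their summed level was 22370 to 36003 CPM in KO and 10969 to 23600 CPM in WT. All 10 had positive log2 fold changes with a median of 0.69, and 0 passed edgeR (4 higher at an unadjusted p under 0.05). DESeq2 called 2 higher, limma-voom 1 and limma-voom with quality weights 8 (4.31%, 1.44% and 18.0% of all genes higher). The WT libraries also held more RNA of B cell, plasma cell and macrophage markers. The 10 B cell markers summed to 80.8 to 316 CPM in KO and 2617 to 10930 CPM in WT, with 7 lower in KO, led in abundance by Cd79a and Cd79b. The 5 plasma cell markers, led by Jchain and Mzb1, summed to 10.8 to 57.9 CPM in KO and 321 to 5533 CPM in WT, with 2 of 4 tested lower and Tnfrsf17 at 0 in KO. The 8 macrophage and monocyte markers, led by Lyz2 and Csf1r, summed to 3.09 to 166 CPM in KO and 1087 to 6650 CPM in WT, with 2 lower. The 8 dendritic cell markers, led by Cst3 and Itgax, summed to 116 to 213 CPM in KO and 138 to 518 CPM in WT, with 0 of 6 tested called by edgeR (2 lower at an unadjusted p under 0.05, 1 lower with DESeq2, 0 called with limma-voom and 4 lower with quality weights) and Clec9a and Cd209a at 0 in KO. The 5 CD8 T cell and NK cell markers, led by Klrb1c and Cd8b1, summed to 211 to 321 CPM in KO and 98.6 to 182 CPM in WT, a sum carried in KO by Klrb1c, which was higher there. The other 4 had negative log2 fold changes (list median -2.17) and did not pass edgeR. The 5 melanoma markers, led by Pmel and Tyrp1, reached at most 6.17 CPM in KO and 6.93 CPM in WT, with Tyr at 0 in all libraries. Of all 14214 genes tested, edgeR called 2.70% lower and 0.429% higher. At an unadjusted p under 0.05, 10.8% of them were lower and 7.15% higher. DESeq2 called 999 lower, limma-voom 680 and limma-voom with quality weights 2768. In such bulk samples, fewer cells of a type and less RNA per cell cannot be told apart.

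All 8 ligands passed the filter on low counts, and 3 of them, Tnfsf9, Tnfsf11 and Tnfsf14, stood above every WT library in every KO library. Groups that did not overlap were found for 8.90% of all 14214 genes tested, 2.59% with all KO libraries above all WT libraries and 6.31% with them all below, which 0 of the 8 ligands had. By edgeR's quasi-likelihood test at a Benjamini-Hochberg adjusted p of 0.05, 0 of the 8 passed. Of all genes 3.13% passed, 0.429% as higher and 2.70% as lower. At an unadjusted p under 0.05 the same 3 ligands were higher and 0 lower, against 7.15% of all genes higher, 10.8% lower and 18.0% in either direction. DESeq2 called these 3 higher and no other ligand (4.31% of all genes were higher with DESeq2), limma-voom called Tnfsf9 (1.44% of all genes higher), and limma-voom with quality weights called the 3 (18.0% of all genes higher). The median log2 fold change was 0.69 over the 8 ligands and -0.12 over all genes tested. It was also 0.69 over the 10 T cell identity genes, so this shift is not read as particular to the ligands. Because the list was chosen with earlier results of these data known, 3 of 8 beside these shares is no independent test.

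**Figure D1:**
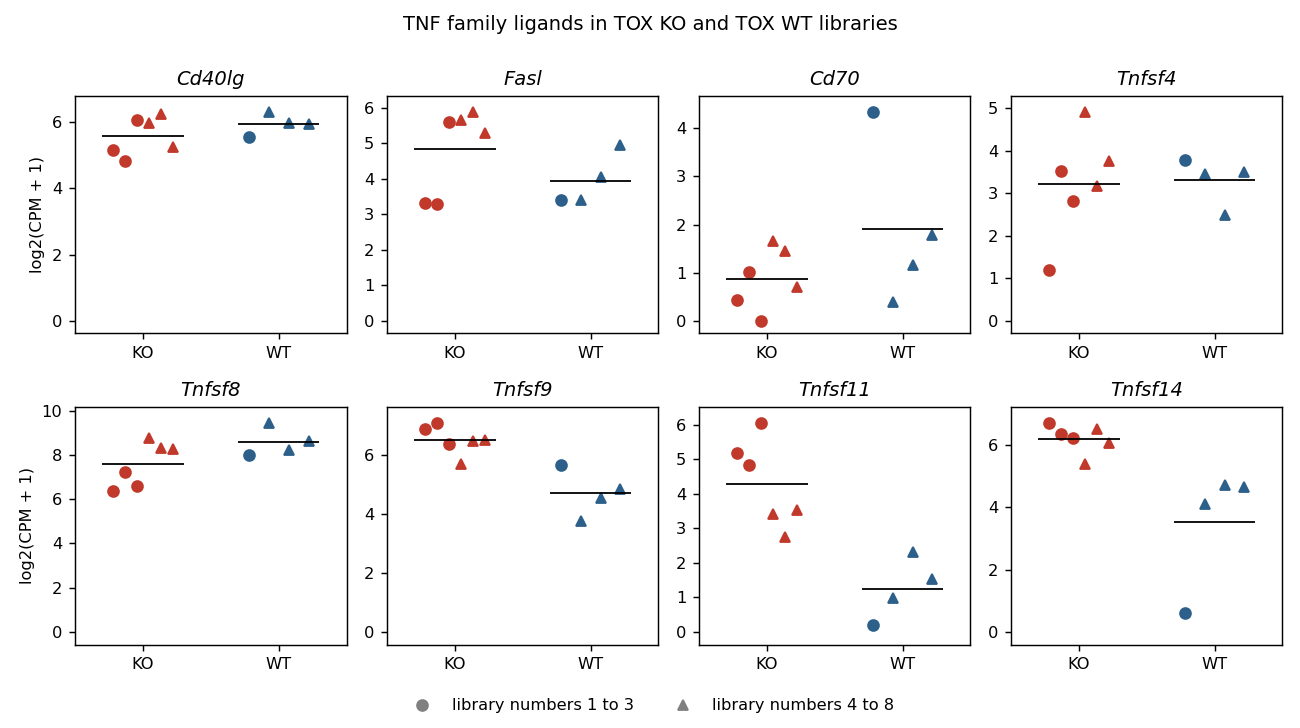
Level of each of the 8 ligands as log2(CPM + 1) in the 6 KO libraries (left in each panel) and the 4 WT libraries (right); circles are library numbers 1 to 3, triangles are library numbers 4 to 8, and the line is the group mean of the log2 values. Tnfsf9, Tnfsf11 and Tnfsf14 have every KO point above every WT point, while the groups overlap for the other 5.

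Tnfsf9, the CD137 ligand, stood at 50.8 CPM in the lowest KO library, 89.1 CPM at the KO median and 134 CPM in the highest, against 50.0, 12.5, 22.5 and 27.8 CPM in WT replicates 1 to 4. The groups did not overlap, but KO replicate 4 and WT replicate 1 lay less than 1 CPM apart; the other WT libraries were all below 28 CPM. The means were 94.2 ± 29.3 CPM (SD, n = 6) in KO and 28.2 ± 15.9 CPM (SD, n = 4) in WT, a 3.34-fold difference (log2 fold change 1.74 with an SE of 0.43, edgeR adjusted p = 0.060). Without WT replicate 1 the log2 fold change was 2.17 (edgeR adjusted p = 0.012), and without KO replicate 4 it was 1.97 (0.040). These were the only 2 passes among 10 fits without 1 library, whose edgeR adjusted p reached 0.14. The fit without WT replicate 1 holds KO libraries of numbers 1 to 3 but no WT library of them. The KO and WT libraries numbered 4 to 8 alone gave 1.94 (edgeR adjusted p = 0.039), and those numbered 1 to 3 alone gave 1.20 (0.18), where a lone WT library is assumed to vary like the KO ones. With a term for these sets of library numbers it was 1.62 (edgeR adjusted p = 0.027).

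Tnfsf14, which encodes LIGHT, stood at 40.7 CPM in the lowest KO library, 77.0 CPM at the KO median and 101 CPM in the highest, against 0.532, 16.1, 25.3 and 23.8 CPM in WT replicates 1 to 4. The 3 higher WT libraries lay close together, and WT replicate 1 held 22 counts of the transcript. The means were 74.9 ± 21.0 CPM (SD, n = 6) in KO and 16.4 ± 11.3 CPM (SD, n = 4) in WT, a 4.56-fold difference (log2 fold change 2.19 with an SE of 0.78, edgeR adjusted p = 0.18). Without the library that differed most from its group, WT replicate 1, the log2 fold change was smaller, 1.79, and passed (edgeR adjusted p = 0.014). This was the only pass among 10 fits without 1 library, whose edgeR adjusted p reached 0.38. That fit holds KO libraries of numbers 1 to 3 but no WT library of them. With a term for the sets of library numbers the log2 fold change was 2.52 (edgeR adjusted p = 0.16). Libraries numbered 4 to 8 alone gave 1.65 (edgeR adjusted p = 0.059), and those numbered 1 to 3 gave 7.35 (0.041), with WT replicate 1 as their sole WT library and hence no WT spread of their own.

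Tnfsf11, which encodes RANK ligand, had the largest fold difference of the 8 ligands and a low level in WT. It stood at 5.70 CPM in the lowest KO library, 18.9 CPM at the KO median and 64.7 CPM in the highest, against 0.145, 0.970, 3.99 and 1.92 CPM in WT replicates 1 to 4. The WT libraries held 6 to 150 counts of it and the KO libraries 259 to 3503. The KO libraries fell into a higher group (numbers 1 to 3, 27.3 to 64.7 CPM) and a lower one (numbers 4 to 8, 5.70 to 10.48 CPM), and the lower one was still above all WT libraries. The means were 25.6 ± 22.4 CPM (SD, n = 6) in KO and 1.76 ± 1.66 CPM (SD, n = 4) in WT, a 14.6-fold difference (log2 fold change 3.86 with an SE of 1.04, edgeR adjusted p = 0.081). The size of this difference depended on the library numbers. Numbers 4 to 8 alone gave 1.94 (edgeR adjusted p = 0.13). Numbers 1 to 3 alone gave 8.21, with 1 WT library of 6 counts and so no WT spread of its own. A term for these sets of library numbers gave 2.87 (edgeR adjusted p = 0.18). All libraries but WT replicate 1 gave 3.48 (edgeR adjusted p = 0.046), the only pass among 10 fits without 1 library, whose adjusted p reached 0.24. That fit holds KO libraries of numbers 1 to 3 but no WT library of them, so library number and genotype are mixed in it.

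**Figure D2:**
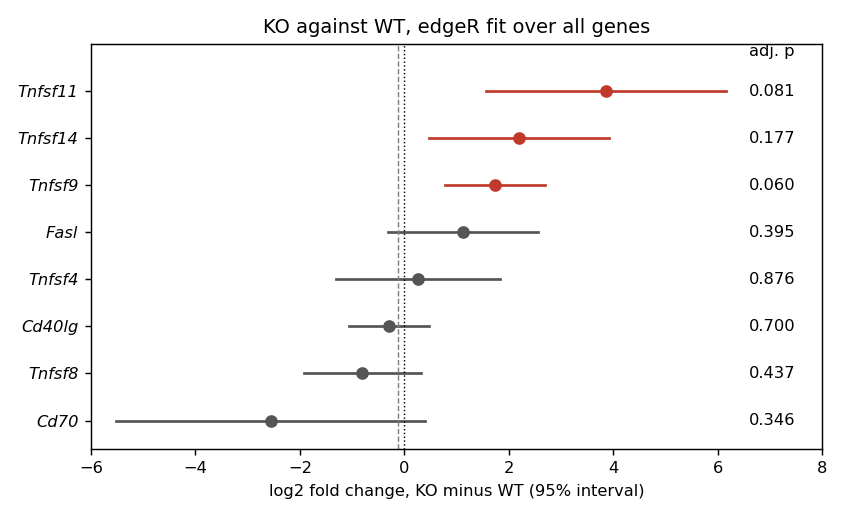
Log2 fold change of each ligand, KO minus WT, with its 95% interval from the edgeR fit over all genes and the adjusted p at the right; the dotted line is 0, the dashed line the median of all genes (-0.12), and red marks the ligands whose groups do not overlap. Intervals of Tnfsf11, Tnfsf14 and Tnfsf9 lie above 0, and those of the other 5 include it.

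Both Tnfsf9 and Tnfsf14 lie in a cluster of TNF family ligands on chromosome 17 (GRCm38), and the third gene of the cluster, Cd70, did not share their pattern. Tnfsf9 occupies chr17:57105385-57107757 on the plus strand, Cd70 chr17:57145997-57149777 and Tnfsf14 chr17:57189492-57194189, both on the minus strand. The cluster spans 88.8 kb, with gaps of 38.2 and 39.7 kb, and the annotation used for counting has no other gene wholly inside it. Cd70 was nearly silent, at 0 CPM in the lowest KO library, 0.825 CPM at the KO median and 2.16 CPM in the highest, against 19.1, 0.314, 1.22 and 2.42 CPM in WT replicates 1 to 4. Apart from WT replicate 1, KO and WT libraries covered the same low range. The log2 fold change of -2.56 (edgeR adjusted p = 0.35, SE 1.34) rested on WT replicate 1: without it the value was -0.43 (0.85), and within library numbers 4 to 8 it was 0.24 (0.89). Tnfsf4 and Fasl share another region, 393 kb of chromosome 1, with Tnfsf4 at chr1:161395409-161418410 (plus strand) and Fasl at chr1:161780689-161788495 (minus strand); Tnfsf18, a further ligand of the family, lies between them and had counts in 1 KO library only (0.849 CPM). Tnfsf11 is on chromosome 14 (chr14:78277445-78308043, minus strand), Tnfsf8 on chromosome 4 (chr4:63831308-63861347, minus strand) and Cd40lg on chromosome X (chrX:57212143-57224042, plus strand). No exon of a member overlaps an exon of another gene in the annotation, so the lack of a strand option in the counting leaves no overlapping partner for them.

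Promoter sequences, 250 bases before to 50 after the start of the gene, were available for 4 of the 8 ligands in the RefSeq table of GRCm38.p6 (Fasl, Tnfsf8, Tnfsf11 and Tnfsf14). Those of Tnfsf11 (chr14:78307994-78308293, minus strand) and Tnfsf14 (chr17:57194132-57194431, minus strand) are shown because these are the members with a sequence whose groups did not overlap. They are written 5′ to 3′, with capitals marking each GGAAA (the core letters that NFAT factors bind) and each TGANTCA (the letters of an AP-1 site) on either strand.
Tnfsf11: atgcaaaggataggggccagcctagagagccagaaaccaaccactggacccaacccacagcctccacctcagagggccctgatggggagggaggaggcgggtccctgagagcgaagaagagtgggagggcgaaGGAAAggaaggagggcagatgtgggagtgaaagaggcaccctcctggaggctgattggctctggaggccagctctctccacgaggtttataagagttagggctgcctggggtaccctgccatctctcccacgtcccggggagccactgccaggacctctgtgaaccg
Tnfsf14: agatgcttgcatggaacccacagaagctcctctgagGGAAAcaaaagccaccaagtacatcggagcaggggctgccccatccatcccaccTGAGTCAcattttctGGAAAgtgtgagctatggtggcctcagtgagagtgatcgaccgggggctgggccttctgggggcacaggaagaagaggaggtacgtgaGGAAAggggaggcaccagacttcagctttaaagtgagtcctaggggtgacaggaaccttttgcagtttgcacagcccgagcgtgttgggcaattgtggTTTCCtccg
Tnfsf14 held GGAAA 4 times and TGANTCA 1 time, and Tnfsf11 held GGAAA 1 time and TGANTCA 0 times. Fasl held GGAAA 2 times and Tnfsf8 1 time, both without TGANTCA. Of 32851 RefSeq promoters of this length, 61.3% held GGAAA and 7.81% held TGANTCA. The letters GGGNNNNNCC, a loose form of an NF-kB site found in 50.8% of all promoters, occurred 4 times in Tnfsf14, 2 times in Tnfsf11, 1 time in Fasl and 0 times in Tnfsf8, and no match of 1 of these 3 motifs overlapped a match of another. These are matches of letters and not measured binding.

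The ligand of B cell help overlapped between the genotypes. Cd40lg stood at 27.4 CPM in the lowest KO library, 49.2 CPM at the KO median and 74.1 CPM in the highest, against 45.5, 77.6, 61.4 and 61.0 CPM in WT replicates 1 to 4. The groups overlapped over most of their range. The means were 50.0 ± 19.4 CPM (SD, n = 6) in KO and 61.4 ± 13.1 CPM (SD, n = 4) in WT, and the log2 fold change was -0.29 with a 95% interval of -1.07 to 0.48 (edgeR adjusted p = 0.70). It was negative in all 26 alternative fits, which reuse the same libraries. With the libraries scaled to T cell identity genes, chosen after the values were seen, it was -1.20 (edgeR adjusted p = 0.052).

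Fasl, the death ligand, stood at 8.77 CPM in the lowest KO library, 43.1 CPM at the KO median and 57.6 CPM in the highest, against 9.57, 9.58, 15.6 and 29.8 CPM in WT replicates 1 to 4. KO replicates 1 and 2 lay below all WT libraries, while the other 4 KO libraries (38.4 CPM or more) lay above them. The log2 fold change was 1.12 with a 95% interval of -0.31 to 2.55 (edgeR adjusted p = 0.40).

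Tnfsf8, the CD30 ligand, was the most abundant of the 8 by CPM in most libraries. It stood at 80.8 CPM in the lowest KO library, 228 CPM at the KO median and 439 CPM in the highest, against 256, 681, 295 and 391 CPM in WT replicates 1 to 4. The 3 lowest values of all were KO replicates 1 to 3, and the other KO libraries lay within the WT range. The log2 fold change was -0.81 with a 95% interval of -1.93 to 0.32 (edgeR adjusted p = 0.44). Tnfsf4, the OX40 ligand, was low, at 1.28 CPM in the lowest KO library, 9.27 CPM at the KO median and 28.9 CPM in the highest, against 12.8, 9.93, 4.58 and 10.3 CPM in WT replicates 1 to 4. Both its lowest and its highest value were in KO libraries. Its log2 fold change was 0.26 with a 95% interval of -1.31 to 1.83 (edgeR adjusted p = 0.88), and the sign turned in 5 of 26 alternative fits.

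Among the KO libraries, 2 ligands differed between library numbers 4 to 8 and 1 to 3, in opposite directions. The labels do not say what the numbers stand for, and the comparison was chosen after the values were seen. Tnfsf8 stood at 310.1 to 439 CPM in KO library numbers 4 to 8 and at 80.8 to 146 CPM in KO library numbers 1 to 3 (log2 fold change 1.73 with an SE of 0.29, edgeR adjusted p = 0.0086). Tnfsf11 stood at 5.70 to 10.48 CPM in numbers 4 to 8 and at 27.3 to 64.7 CPM in numbers 1 to 3 (log2 fold change -2.30 with an SE of 0.45, edgeR adjusted p = 0.017). Of all 12919 genes tested in that comparison, 12.7% were called, 3.15% as higher and 9.60% as lower in numbers 4 to 8, so 2 of 8 is not read as particular to the ligands. The call on Tnfsf11 was lost without KO replicate 4, 5 or 6 (edgeR adjusted p = 0.062, 0.065 and 0.058). Tnfsf9 (76.3 ± 22.1 CPM in numbers 4 to 8 and 112 ± 26.5 CPM in numbers 1 to 3, SD, n = 3 each) and Tnfsf14 (64.7 ± 24.1 and 85.1 ± 14.4 CPM in the same order) did not pass (edgeR adjusted p = 0.33 and 0.54). Genes detected numbered 16348 to 17304 in KO numbers 4 to 8 and 15163 to 15873 in KO numbers 1 to 3, and the part of this in the values of Tnfsf8 and Tnfsf11 was not tested.

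Levels of different ligands were compared per exon length, as CPM per kilobase (CPM/kb). In KO the order of the mean levels was Tnfsf9 (76.6 ± 23.9 CPM/kb), Tnfsf8 (60.9 ± 38.1), Tnfsf14 (40.3 ± 11.3), Cd40lg (40.04 ± 15.5), Fasl (18.2 ± 10.98), Tnfsf11 (11.4 ± 10.03), Tnfsf4 (6.09 ± 5.16) and Cd70 (1.16 ± 0.982; SD, n = 6). In WT the order was Tnfsf8 (107 ± 50.5 CPM/kb), Cd40lg (49.1 ± 10.48), Tnfsf9 (22.9 ± 12.9), Tnfsf14 (8.83 ± 6.10), Fasl (8.34 ± 4.93), Cd70 (6.86 ± 10.6), Tnfsf4 (5.09 ± 1.87) and Tnfsf11 (0.785 ± 0.741; SD, n = 4). The place of Cd70 in WT rests on WT replicate 1 (22.7 CPM/kb); the other WT libraries held 0.373 to 2.88 CPM/kb and ranked it 7 or 8. Neighbours in this order lay within the larger of their SDs in KO from Tnfsf9 down to Cd40lg and from Fasl down to Cd70, and in WT from Tnfsf14 down to Tnfsf4. Tnfsf9 ranked first per length in 3 of 6 KO libraries and 0 of 4 WT libraries, and Tnfsf8 ranked first in the other 3 KO libraries and in 4 of 4 WT libraries. Tnfsf14 ranked 2 to 5 in KO and 4 to 7 in WT. The CPM of the 8 ligands together covered a like range in both genotypes, 382 to 682 CPM in KO and 393 to 808 CPM in WT.

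**Figure D3:**
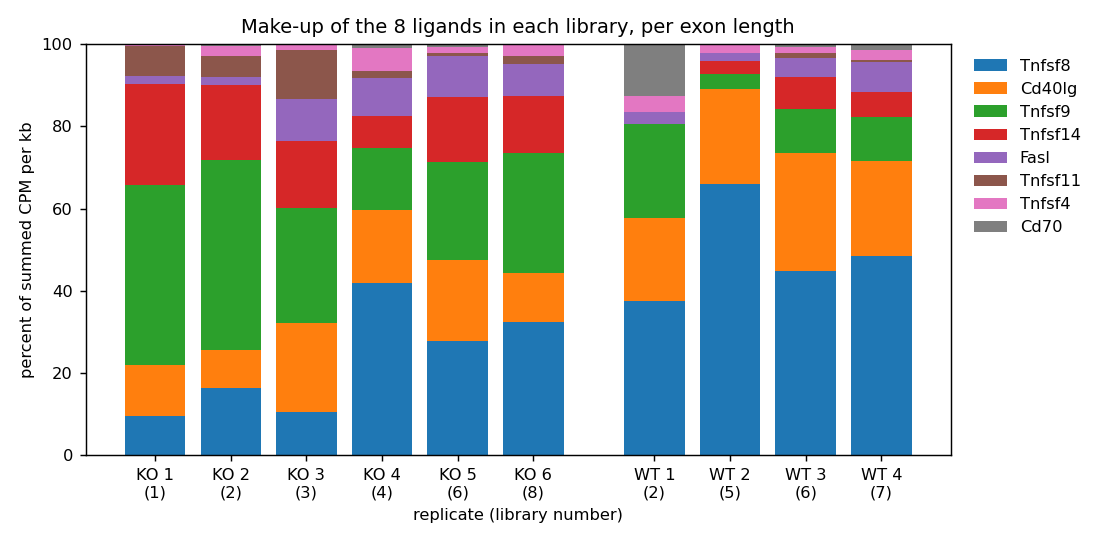
Share of each ligand in the summed CPM per kilobase of the 8 ligands, as stacked percentages for the 6 KO libraries (left) and the 4 WT libraries (right), with the library number in brackets. Tnfsf9 makes up 15.0 to 46.2% in KO and 3.76 to 22.7% in WT, and Tnfsf8 9.57 to 41.8% in KO and 37.5 to 66.0% in WT.

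The receptors of these ligands gave 0 edgeR calls as well. Of 10 genes, 8 were tested and 0 passed edgeR. At an unadjusted p under 0.05, 0 were higher and 3 lower (7.15% and 10.8% of all genes). DESeq2 called 3 lower, limma-voom 1 lower and limma-voom with quality weights 3 lower. Of all 14214 genes, these called 999, 680 and 2768 lower in the same order. Their median log2 fold change was -0.47. With the libraries scaled to T cell identity genes, edgeR called Cd40 (-5.27, adjusted p = 0.020), Fas (-1.90, 0.0067), Tnfrsf4 (-1.42, 0.013) and Tnfrsf9 (-1.71, 0.0054) lower in KO. The share of all genes called lower on that scale was 16.7%. Tnfrsf9, the receptor of the Tnfsf9 product, stood at 169 ± 36.0 CPM (SD, n = 6) in KO and 322 ± 107 CPM (SD, n = 4) in WT, a log2 fold change of -0.93 with a 95% interval of -1.54 to -0.32 (edgeR adjusted p = 0.11), while the ligand gene stood at 1.74. Of 10 fits without 1 library, Tnfrsf9 passed only without WT replicate 3 (-1.11, edgeR adjusted p = 0.037), and its edgeR adjusted p reached 0.40. Fas averaged 26.5 ± 9.64 CPM in KO libraries and 57.6 ± 18.7 CPM in WT libraries (log2 fold change -1.12, edgeR adjusted p = 0.15), and Tnfrsf4, the OX40 gene, 513 ± 69.0 CPM in KO libraries and 874 ± 536 CPM in WT libraries (log2 fold change -0.77, edgeR adjusted p = 0.29). Cd40, the receptor that B cells, macrophages and dendritic cells carry, averaged 6.99 ± 6.48 CPM in KO libraries and 147 ± 77.1 CPM in WT libraries, without overlap (log2 fold change -4.39, edgeR adjusted p = 0.077). It passed without KO replicate 5 (edgeR adjusted p = 0.022) and without WT replicate 1 (0.034). These were 2 of 10 fits without 1 library, whose edgeR adjusted p reached 0.20. The fit without WT replicate 1 holds no WT library of numbers 1 to 3. The B cell, plasma cell and macrophage markers given above moved with Cd40, and their part in its level was not tested.

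The other receptors are given by their levels. Cd27, the CD70 receptor, stood at 434 ± 77.8 CPM in KO libraries and 449 ± 220 CPM in WT libraries. Tnfrsf8, the CD30 gene, stood at 6.21 ± 4.50 CPM in KO libraries and 6.68 ± 5.13 CPM in WT libraries. Tnfrsf14, which encodes the LIGHT receptor HVEM, stood at 23.7 ± 5.97 CPM in KO libraries and 26.5 ± 8.44 CPM in WT libraries. Ltbr, the other LIGHT receptor, stood at 2.10 ± 2.26 CPM in KO libraries and 1.64 ± 2.13 CPM in WT libraries. Tnfrsf11a, which encodes RANK, reached at most 0.0851 CPM in KO and 0.761 CPM in WT. Tnfrsf11b, a soluble decoy for RANK ligand, was at 0 in every KO library and reached at most 1.54 CPM in WT. Both were below the filter. The libraries with the most Tnfsf11 transcripts, those of KO, thus held nearly none of its receptor's.

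Of 10 further ligands of the family, 6 were tested by edgeR. In KO 1 fell and 0 rose (2.70% and 0.429% of all genes), with a median log2 fold change of -0.69. At an unadjusted p under 0.05, 2 were lower and 0 higher (10.8% and 7.15% of all genes). DESeq2 called 1 lower (Lta), limma-voom 1 lower (Tnfsf12), and limma-voom with quality weights 1 higher (Ltb) and 2 lower (Lta and Tnfsf12). DESeq2 gave no adjusted p for Tnfsf12, and the filter at 1 CPM in 4 libraries left it out. Of all genes, DESeq2 called 999 lower, limma-voom 680 lower, and quality weights 2562 higher and 2768 lower. The edgeR call was on Tnfsf12, which encodes TWEAK, with 0 counts in KO and 97 in WT, which makes KO at least 57.5-fold lower when 3 counts are set as the floor of the whole KO group. Its level in WT was 0.285 to 0.918 CPM. The B cell, plasma cell and macrophage markers given above also summed to less in KO, and their part in the level of Tnfsf12 was not tested. The call was lost without WT replicate 2 or 4 (edgeR adjusted p = 0.051 and 0.075). A share of 48.3% of the exon length of Tnfsf12 is shared with Tnfsfm13, a read-through gene, where reads are ambiguous. Tnf, the inflammatory cytokine that names the family, averaged 217 ± 41.9 CPM in KO libraries and 138 ± 55.7 CPM in WT libraries (log2 fold change 0.65, edgeR adjusted p = 0.29; with the libraries scaled to T cell identity genes, -0.19). Lta, which encodes lymphotoxin alpha, averaged 53.8 ± 16.2 CPM in KO libraries and 89.2 ± 12.9 CPM in WT libraries (log2 fold change -0.73, edgeR adjusted p = 0.20). Ltb, its membrane partner, stood at 293 to 638 CPM in KO numbers 4 to 8, 1827 to 2811 CPM in KO numbers 1 to 3, 1844 CPM in WT replicate 1 (library number 2) and 20.5 to 377 CPM in WT replicates 2 to 4 (log2 fold change 1.38, edgeR adjusted p = 0.58). Tnfsf10, which encodes the death ligand TRAIL, stood at 11.4 ± 6.88 CPM in KO libraries and 17.9 ± 2.72 CPM in WT libraries. Tnfsf13b, which encodes the B cell survival factor BAFF, stood at 2.26 ± 1.43 CPM in KO libraries and 4.42 ± 3.96 CPM in WT libraries. Tnfsf13, Tnfsf15, Tnfsf18 and Eda were below the filter, with at most 0.849 CPM in KO and 2.59 CPM in WT.

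Genes that act below the receptors were measured in both genotypes with 0 calls. Of 14 adaptors and signal genes (the TRAF family, Tradd, Fadd, Ripk1, Casp8, Cflar, Birc2, Birc3 and Map3k14), 0 passed edgeR, 11 had positive log2 fold changes and the median was 0.50. At the level of single genes, 2 were higher at an unadjusted p under 0.05, DESeq2 and limma-voom called 0, and limma-voom with quality weights called 5 higher and 1 lower. Of all 14214 genes, 7.15% were higher at an unadjusted p under 0.05, and quality weights called 2562 higher and 2768 lower. Of Adam10 and Adam17, proteases that shed ligands of the family, 0 passed (0 at an unadjusted p under 0.05 and 0 with DESeq2 or limma-voom; 1 was lower with quality weights). Of 12 activation genes of CD4 T cells, 2 rose and 0 fell by edgeR (0.429% and 2.70% of all genes), with a median of 0.31. They were Nr4a1 and Egr3, transcription factor genes induced by T cell receptor signals, with 1.94 for Nr4a1 (edgeR adjusted p = 0.031) and 2.87 for Egr3 (0.026) as log2 fold changes. The call on Nr4a1 was lost in 4 and that on Egr3 in 5 of the 10 fits without 1 library (edgeR adjusted p up to 0.099 and 0.11, both without WT replicate 4). Both calls were also lost when the libraries were scaled to T cell identity genes, at 1.22 for Nr4a1 (edgeR adjusted p = 0.097) and 1.93 for Egr3 (0.085).

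The genes closest in pattern to each ligand were found among 7654 named genes whose mean reached 8 CPM, by the root mean square difference of log2 CPM over the 10 libraries after centring each gene on its mean. Closest to Tnfsf9 was Nr4a1, at 0.35 log2 units, followed by Slc29a1 at 0.41. Closest to Tnfsf14 were Fntb (0.37) and Ecm1 (0.50), and closest to Tnfsf11 were Chn2 (0.58) and Itfg1 (0.80). Cd40lg had the closest neighbours of all 8, Asb3 and Ppcdc (0.22 and 0.24), followed by Tnfsf8 with Cd84 and Frmd4b (0.28 and 0.30). The neighbours of Tnfsf4 were Scrn3 and Xlr4b (0.64 each), those of Fasl were Sipa1l3 and Fyco1 (0.69 and 0.70), and those of Cd70 were Rrm2 and Ifitm2 (1.07 and 1.19). The patterns were not scaled to each gene's spread, so a ligand that varies little lies closer to other genes that vary little. The distances therefore do not rank the ligands by likeness to their neighbours. Nr4a1 stood at 609 ± 279 CPM (SD, n = 6) in KO and 158 ± 68.6 CPM (SD, n = 4) in WT, with its highest WT value in WT replicate 1 (254 CPM), as for Tnfsf9.

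Tnfsf9, Tnfsf11 and Tnfsf14 were higher in KO by value in all 26 alternative fits, and whether they passed depended on the fit. Their groups did not overlap and the fits reuse the same libraries, so the sign could hardly turn. The kept direction is therefore no independent support. Tnfsf9 passed in 10 of the 26, and Tnfsf11 and Tnfsf14 in 4 each, of which 1 each comes from numbers 1 to 3 alone with a single WT library. The share of all genes called higher was 0.401% with DESeq2 size factors, 0.436% with library totals, 0.592% with the filter at 1 CPM in 4 libraries, 0.816% with the library set term, 0.842% in numbers 4 to 8 alone and 2.10% in numbers 1 to 3 alone. It was 0.304% without KO replicate 4 and 2.92% without WT replicate 1. Scaling the libraries to their T cell identity genes, an alternative chosen after the values were seen, moved the all-gene median by -0.86. It left log2 fold changes of 1.03 for Tnfsf9, 2.81 for Tnfsf11 and 1.18 for Tnfsf14 (edgeR adjusted p = 0.13, 0.11 and 0.37). On that scale 16.7% of all genes were called lower. Tnfsf8 was among them (-1.69, edgeR adjusted p = 0.038), and Cd40lg stood at -1.20 (0.052).

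**Figure D4:**
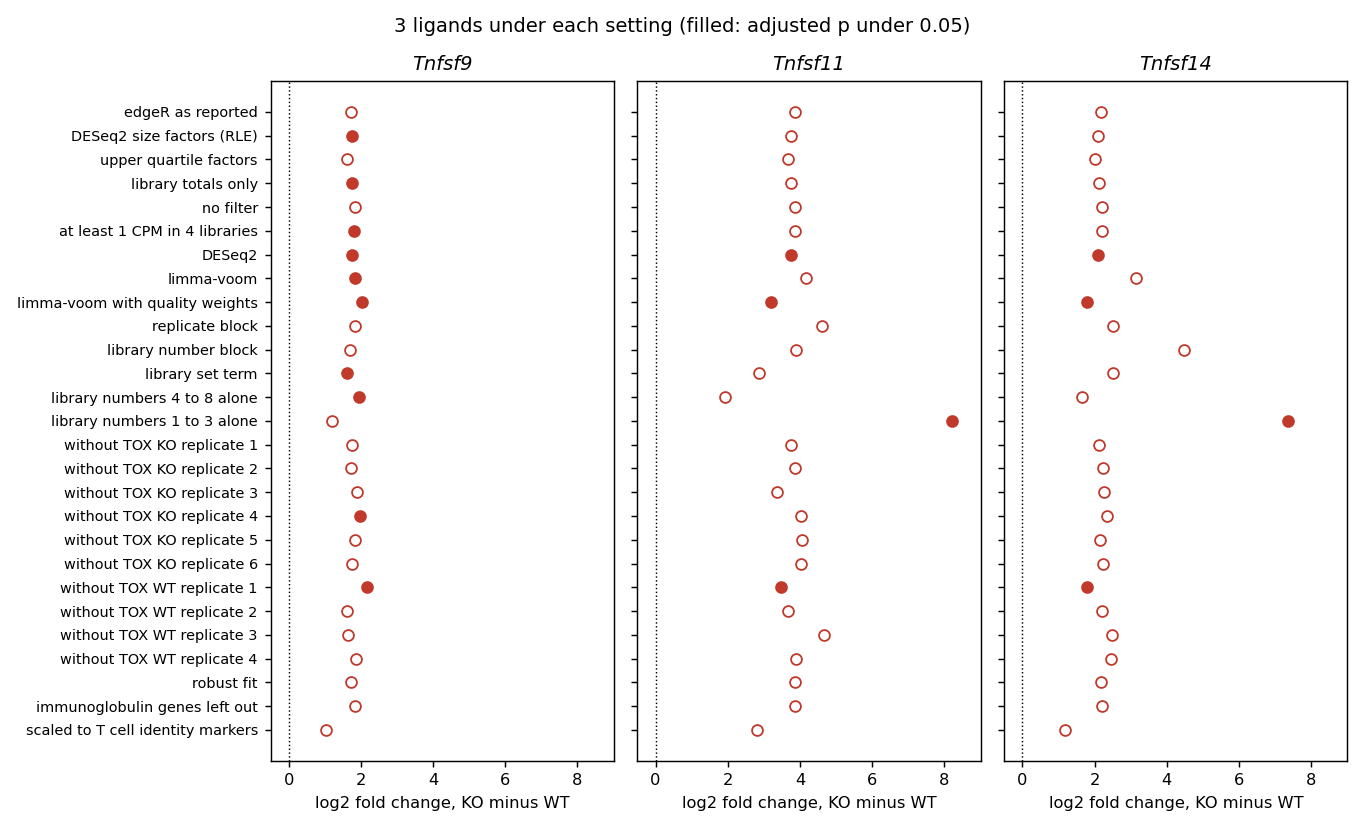
Log2 fold change, KO minus WT, of Tnfsf9, Tnfsf11 and Tnfsf14 in the reported edgeR fit (top) and in the 26 alternatives; filled points have an adjusted p under 0.05. All points lie to the right of 0, from 1.03 to 2.17 for Tnfsf9, 1.94 to 8.21 for Tnfsf11 and 1.18 to 7.35 for Tnfsf14.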

How the data were processed

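Per the labels' protocols, cells went into Trizol, their RNA was amplified by SMART-seq V4 and the libraries were read from both ends. Per the file headers, the authors counted read pairs per gene name with featureCounts 1.6.2 and the GENCODE vM17 genes of GRCm38.p6, without strand and without pairs that map to several places; the deposited values are these raw counts. The submitters' processing notes also name FastQC and STAR, whose versions are not given in the sources used here. Depth was 31939816 to 55784453 counts per library.

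Genes were kept by filterByExpr and libraries were scaled with TMM factors. KO was compared with WT by the quasi-likelihood method of edgeR 4.0.16 in R 4.3.3 over all 10 libraries. The single genotype term in this fit also carries the sort gate. Log2 fold changes run KO minus WT; each SE divides the log2 fold change by the root of its F value; p-values were adjusted by Benjamini-Hochberg over 14214 genes with a threshold of 0.05. CPM uses TMM-scaled library sizes, CPM/kb divides by the exon length in the files, and log2 CPM for the likeness of patterns adds a prior count of 2. Alternatives used other scalings and filters, DESeq2 1.42.0, limma-voom (limma 3.58.1), blocks, sets of library numbers and left-out libraries. No 2 libraries of a group agreed within sampling noise by a chi-square of their counts. The procedure was tested on simulated data. The members, lists and tests were chosen with earlier results of these data known; named were the members, Tox, the receptors and further ligands, called genes of the pathway lists, the 2 most abundant markers per cell type and the 2 genes closest to each member. Other genes that this rule names, the sort marker genes among them, are not described here.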

Additional observations from a re-analysis of the deposited data

Results flagged for a closer look

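The 6 KO and the 4 WT libraries were searched for a highest or lowest library that stands apart from the rest by Dixon's criterion, for 25 genes in 2 groups each. Of these 50 groups 3 stood out, and chance alone flags about 1 in 20. Cd70 was at 19.1 CPM in WT replicate 1, against 0.314 to 2.42 CPM in WT replicates 2 to 4. Tnfrsf14 was at 39.1 CPM in WT replicate 2, while WT replicates 1, 3 and 4 held 21.5 to 22.8 CPM. Lta was at 84.6 CPM in KO replicate 3, against 41.3 to 56.1 CPM in the other KO libraries.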

How the results depend on the processing

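Direction was kept in all 26 alternatives by Tnfsf9, Tnfsf11, Tnfsf14, Cd40lg, Fasl and Tnfsf8, and which of them passed varied. The alternatives reuse the same libraries, so a kept direction is no independent support. In all-gene counts, 61 genes were higher and 384 lower in KO as reported; higher and lower calls numbered 613 and 999 with DESeq2, 204 and 680 with limma-voom, 2562 and 2768 with quality weights, 121 and 1033 in library numbers 4 to 8 alone, 316 and 79 in numbers 1 to 3 alone, and 22 and 2367 after scaling to T cell identity genes, where 0.921% of calls were higher, against 13.7% as reported. Without a filter 39 were higher, with the library set term 116, and without immunoglobulin genes 221 were lower. Leaving out 1 library gave 10 to 443 higher and 143 to 1201 lower. Upper quartile scaling shifted the median of all genes by -0.13.

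Ligands called higher numbered 1 with DESeq2 size factors, library totals, a filter at 1 CPM in 4 libraries, limma-voom, the library set term and numbers 4 to 8 alone, 3 with DESeq2 and with quality weights, 2 in numbers 1 to 3 alone, and 0 to 3 without 1 library; 1 was called lower after identity scaling (Tnfsf8, -1.69). Tnfsf9 passed at log2 fold changes of 1.74 with DESeq2 size factors, library totals and DESeq2, 1.81 with the CPM filter, 1.83 with limma-voom, 2.04 with quality weights, 1.62 with the set term and 1.94 in numbers 4 to 8. Tnfsf11 passed at 3.75 with DESeq2, 3.19 with quality weights and 8.21 in numbers 1 to 3, and Tnfsf14 at 2.09, 1.78 and 7.35 in the same 3 fits. Without 1 library the ranges were 1.61 to 2.17 for Tnfsf9 (edgeR adjusted p = 0.012 to 0.14), 3.36 to 4.66 for Tnfsf11 (0.046 to 0.24), 1.79 to 2.48 for Tnfsf14 (0.014 to 0.38), -0.41 to -0.09 for Cd40lg, 0.94 to 1.67 for Fasl, -1.04 to -0.36 for Tnfsf8, -2.88 to -0.43 for Cd70 and -0.22 to 0.57 for Tnfsf4. The sign turned for Tnfsf4 with limma-voom (-0.14), the replicate block (-0.17), numbers 1 to 3 (-1.07) and identity scaling (-0.50), for Cd70 in numbers 4 to 8 (0.24), for Ltb with the library number block (-0.19) and for Tnf with identity scaling (-0.19); the cause was not tested.

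The replicate block called 0 genes higher and 0 lower, as did a block by library number. In the block by library number, only numbers 2 and 6 hold both genotypes. That leaves almost no spread to test against, so its lack of calls says nothing about the genes. With the replicate block Tnfsf9 stood at 1.83, Tnfsf11 at 4.61 and Tnfsf14 at 2.52 (edgeR adjusted p = 0.22, 0.18 and 0.35). Deviations of same-numbered libraries correlated at 0.29, -0.25, -0.22 and 0.30, and not every WT library correlated best with its own replicate number, so the samples are treated as sharing only a number. For library numbers 2 and 6, the pairs that both genotypes hold, it was 0.32 and 0.13, and the WT library of number 2 correlated best with the KO library of number 2; these are only 2 pairs. Depth limits Cd70 (0 to 85 counts per KO library) and Tnfsf11 in WT (6 to 150 counts).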
